A study of Rattus norvegicus with 10 samples.

Results

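Growth hormone acts on the liver in pulses in male rats, and the 10 genes described here belong to that response and to the insulin-like growth factor (IGF) system that it drives. They are the feedback genes Cish and Socs2, the transcription factors Bcl6 and Onecut1, the secreted products Igf1, Igfals and Igfbp3, the receptors Ghr and Prlr, and the signal transducer Stat5b. A gene was taken by its symbol in the array's platform annotation, with every probe set that named it alone, which gave 18 of the 31042 probe sets tested and 10 of the 14217 genes named. The genes were chosen by earlier values of these same animals, mainly the wide spread of some of them from liver to liver, so that spread is described below and was not tested.

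The arrays measured liver RNA of 10 male rats of the outbred Sprague-Dawley stock. The 5 control animals are labelled as controls, and the other 5 are labelled as exposed to effluent from bulk drug factories for a short term. The labels used here give no age, dose, length of exposure, feeding state or hour of killing, and growth hormone itself was not measured. Values are log2 expression per probe set, so a difference of 1 is a doubling. They lie between 2.19 and 14.999 over all probe sets, with array medians of 5.43 to 5.49 and correlations of 0.991 to 0.996 between arrays. Each of the 6 hepatocyte markers, albumin (Alb) among them, was measured at a mean of 12.49 or more.

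As background, growth hormone binds its receptor Ghr on hepatocytes and activates the kinase Jak2, which phosphorylates Stat5b. Active STAT5 enters the nucleus and binds short palindromic sites, raising Cish, Socs2, Onecut1 and Igf1 and lowering Bcl6, while Cish and Socs2 then damp the receptor. BCL6 is a repressor that can occupy STAT5 sites between pulses. Igf1 is secreted and circulates in a complex with Igfbp3 and the acid-labile subunit Igfals, so it stands at the slow end of the pathway, and the feedback genes stand at its fast end.

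The STAT-type site TTCNNNGAA was looked for in the RefSeq promoter windows of the members (assembly GRCr8), from 250 bases before to 50 after a start site, because it is the letter pattern through which the fast genes are known to be read. The pattern is its own reverse complement, so both strands are covered by a single search. Windows were held for 8 of the 10 genes. None was held for Socs2 or Onecut1, so these fast genes were not searched. At least 1 match lay in 2970 of 33469 windows of this length (8.87%), and 4 matches, the highest number in any window, lay in 2 of them (0.00598%). The Cish window was one of the pair. The other starts the non-coding RNA LOC120095689, which runs head to head with Bcl6 and whose window shares 200 bases with that of Bcl6. Both are printed with the matches in capitals, the Cish window at chr8:116850719-116851018 on the plus strand and the window beside Bcl6 at chr11:90358603-90358902 on the minus strand.
Cish: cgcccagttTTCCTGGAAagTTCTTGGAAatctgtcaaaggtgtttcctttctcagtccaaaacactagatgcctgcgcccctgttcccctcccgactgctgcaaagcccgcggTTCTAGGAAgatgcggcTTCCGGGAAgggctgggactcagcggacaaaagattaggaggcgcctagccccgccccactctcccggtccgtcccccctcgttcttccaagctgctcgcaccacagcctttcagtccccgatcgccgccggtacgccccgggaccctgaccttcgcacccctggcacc
LOC120095689: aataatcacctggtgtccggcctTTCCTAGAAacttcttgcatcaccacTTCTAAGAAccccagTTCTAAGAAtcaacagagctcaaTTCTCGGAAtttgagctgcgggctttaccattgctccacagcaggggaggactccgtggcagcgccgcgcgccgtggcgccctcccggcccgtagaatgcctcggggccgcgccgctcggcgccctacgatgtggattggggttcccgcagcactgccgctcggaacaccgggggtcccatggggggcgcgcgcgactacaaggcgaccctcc

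Not every window has its start site at the first base of its gene. The start sites of Cish, Bcl6 and Igfbp3 lay there, while those of Stat5b and Prlr lay 226 and 374 bases into the gene. The windows of Igf1, Igfals and Ghr had start sites 2.92, 6.77 and 100.5 kb into the gene. A further Prlr window had its start site 48.3 kb in. In the Cish window the matches begin at -241, -230, -136 and -119 from the gene's first base. Beside Bcl6 they begin 54, 77, 92 and 118 bases after that gene's first base, past the end of its own window, which held none. That position was seen only when all windows were ranked. Of the other members, Prlr had 1 match in the inner of its 2 windows, at -176 from that window's own start site. The windows held for Stat5b and Igfbp3 had none, and neither had the inner ones of Ghr, Igf1 and Igfals, whose outermost starts were not searched. A match is a run of letters and was not tested as a binding site.

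The members split by how much they varied from liver to liver. Bcl6, Cish, Onecut1 and Socs2 spanned between 4.45-fold and 31.4-fold over the 10 animals by their brightest probe sets. Igf1, Igfals, Igfbp3, Ghr and Stat5b spanned between 1.11-fold and 1.61-fold by theirs. Prlr lay between them at 2.53-fold, but its second brightest probe set spanned 4.78-fold, more than Socs2. That Prlr probe set has a mean below that of the median probe set. Bcl6 had the fifth widest range of all 31042 probe sets, at 4.97 on the log2 scale, and the brightest probe set of Onecut1 was next, at 4.79. Ranges were 3.75 for Cish, the 17th widest, and 2.15 for Socs2, the 116th, against a median range of 0.42 over all probe sets. The spread lay within groups: both groups held animals at the low and the high end of Bcl6, Cish and Onecut1.

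**Figure D1:**
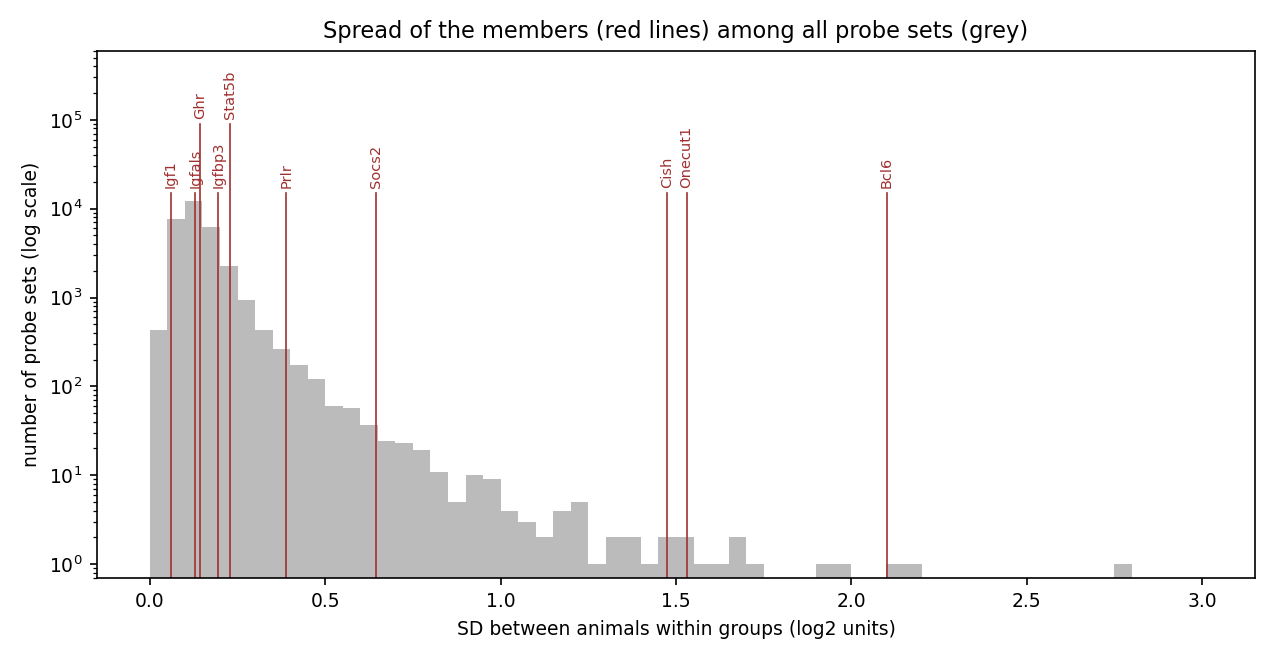
The grey bars count all 31042 probe sets by their SD between animals within groups, on a log axis, and the red lines mark the brightest probe set of each of the 10 genes. Bcl6 lay at 2.10, Onecut1 at 1.53 and Cish at 1.47, far to the right of the median probe set at 0.13, while Igf1 lay at 0.06.

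Cish encodes a feedback inhibitor of cytokine receptors. On its brighter probe set it read 8.47, 5.96, 8.68, 6.16 and 6.77 in control animals 1 to 5 and 5.48, 8.72, 4.97, 7.22 and 8.18 in exposed animals 1 to 5. The 4 lowest livers were 2 controls and 2 exposed animals, and the 4 highest likewise, so the groups overlapped over nearly their whole ranges. The other Cish probe set read 5.45 to 8.49 and followed the brighter one across the animals (r = 0.954, group means removed, n = 10).

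Bcl6, the repressor that pulses lower, read 9.08, 10.56, 8.04, 10.32 and 5.92 in control animals 1 to 5 and 10.18, 8.20, 10.89, 5.93 and 6.05 in exposed animals 1 to 5. Control animal 5 and exposed animals 4 and 5 stood apart at 5.92 to 6.05, and the other 7 livers lay at 8.04 or above. The gap between them was 1.99 on the log2 scale, 40.0% of the whole range. Bcl6 has 1 probe set, so no other one on the arrays bears on this gap.

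Onecut1, a liver transcription factor also called HNF6, read 7.18, 6.96, 7.11, 8.03 and 9.52 in control animals 1 to 5. In exposed animals 1 to 5 it read 5.19, 8.09, 7.43, 9.42 and 9.98. The 3 highest livers were the 3 with the lowest Bcl6, and exposed animal 1 was far below the rest. Without that animal the range narrowed from 4.79 to 3.02. The other Onecut1 probe set had the same 3 livers at its top, at 8.30 to 8.63 against 5.83 to 7.05 in the rest, and followed the brighter one (r = 0.958, n = 10).

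Socs2, the other feedback inhibitor and the main brake on growth hormone signalling, read 6.52, 6.46, 6.35, 7.46 and 7.03 in control animals 1 to 5 and 5.31, 6.63, 6.75, 7.45 and 6.83 in exposed animals 1 to 5. Exposed animal 1 was lowest here too, and without it the range fell from 2.15 to 1.11. Control animal 4 and exposed animal 4, the highest for Socs2, had Cish at 6.16 and 7.22, in the lower and middle part of its range.

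**Figure D2:**
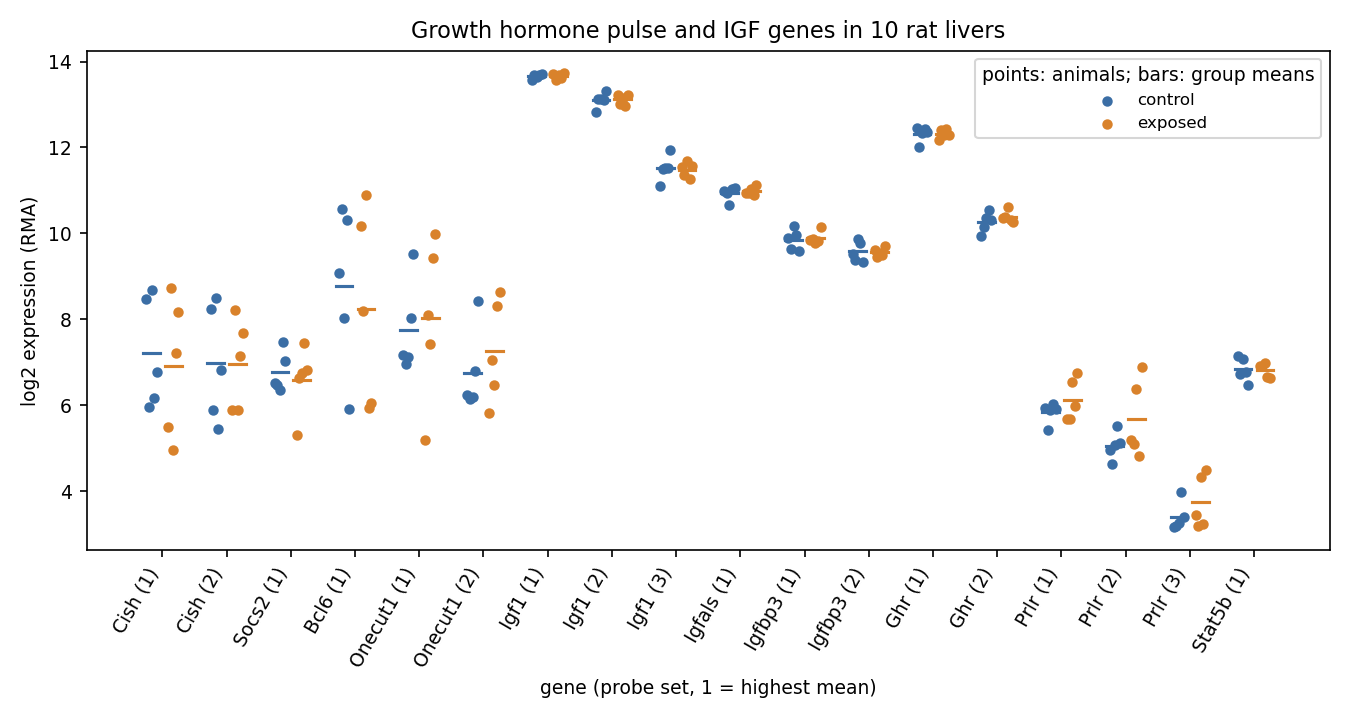
Each point is 1 animal's log2 expression on 1 probe set, blue for control and orange for exposed, with a bar at each group mean; probe sets of a gene are numbered from the brightest. Points of Cish, Socs2, Bcl6 and Onecut1 are strewn over 2.15 to 4.97 log2 units by their brightest probe sets, those of Igf1, Igfals, Igfbp3, Ghr and Stat5b lie close together, and the colours overlap for every gene.

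Cish and Bcl6 ran opposite ways among most livers. Control animals 2 and 4 and exposed animals 1 and 3 had the 4 highest Bcl6 values, 10.18 to 10.89, and the 4 lowest Cish values, 4.97 to 6.16. Control animals 1 and 3 and exposed animal 2 had the 3 highest Cish values, 8.47 to 8.72, with Bcl6 between 8.04 and 9.08. The 3 livers with the lowest Bcl6 had Cish at 6.77 to 8.18. Since Bcl6 falls into separate clusters, its correlations with other members over all 10 animals are given below only with that limit. Over the 7 livers above the gap, with group means kept, Cish fell on Bcl6 with r = -0.953 and rho = -0.857. The 7 livers were chosen after seeing the values, so this is a description with no test. They also fall into 2 clusters, 3 livers with Bcl6 at 8.04 to 9.08 and 4 with Bcl6 at 10.18 to 10.89. Cish was 8.47 to 8.72 in the first cluster and 4.97 to 6.16 in the second. The r values of Bcl6 and of Cish over these 7 thus carry the same limit. Over the same 7 livers r with Bcl6 was -0.239 for Onecut1 (rho -0.0714) and 0.075 for Socs2 (rho 0.393). The contrast of Bcl6 with Onecut1 thus lay in the 3 livers below the gap. For Igf1 on its brightest probe set, r with Bcl6 over these 7 was 0.788 (rho 0.536), and for Igfals 0.688 (rho 0.75). Cish with Igf1 gave r = -0.900 (rho -0.714) there, likewise with no test. That subset leaves out exposed animal 5, with Cish at 8.18 and the highest Igf1, 13.72. Over all 10 animals, with group means kept, r of Cish with Igf1 was -0.630.

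Co-variation was measured for 14 relations, 6 among Bcl6, Cish, Onecut1 and Socs2 and 8 of these with Igf1 and Igfals, with group means removed and exact permutation within the groups. The p-values describe these animals and are no independent evidence, as the genes were chosen with their values known. None of the 14 passed 0.05 after Benjamini-Hochberg adjustment, for r or for rho, and 2 had an unadjusted exact permutation p of r below it. Onecut1 and Socs2 gave r = 0.823 (exact permutation p 0.0185, adjusted 0.129) and rho = 0.842 (p 0.00806, adjusted 0.113), n = 10. Their r was 0.725 without exposed animals 1 and 5 (exact permutation p 0.0792) and 0.590 without exposed animal 1 alone. The other was Bcl6 with Onecut1 (r = -0.791, exact permutation p 0.0137, adjusted 0.129), to which the limit on Bcl6 applies. Under the same limit, Bcl6 with Cish gave r = -0.596 (exact permutation p 0.105, adjusted 0.367). With group means kept, Onecut1 with Socs2 and Bcl6 with Onecut1 passed, each with an adjusted permutation p of 0.0431.

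Cish did not run with the other pulse-raised genes to a degree these 10 animals could show. It gave r = 0.360 with Onecut1 (exact permutation p 0.388, adjusted 0.658; rho 0.333, p 0.400, adjusted 0.699) and r = 0.101 with Socs2 (exact permutation p 0.846, adjusted 0.970; rho -0.00606, p 1, adjusted 1). Without exposed animals 2 and 3 these were r = 0.378 and r = 0.174. Within groups the sign differed: Cish with Onecut1 gave -0.317 over the 5 controls and 0.666 over the 5 exposed animals, a difference that was not tested.

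**Figure D3:**
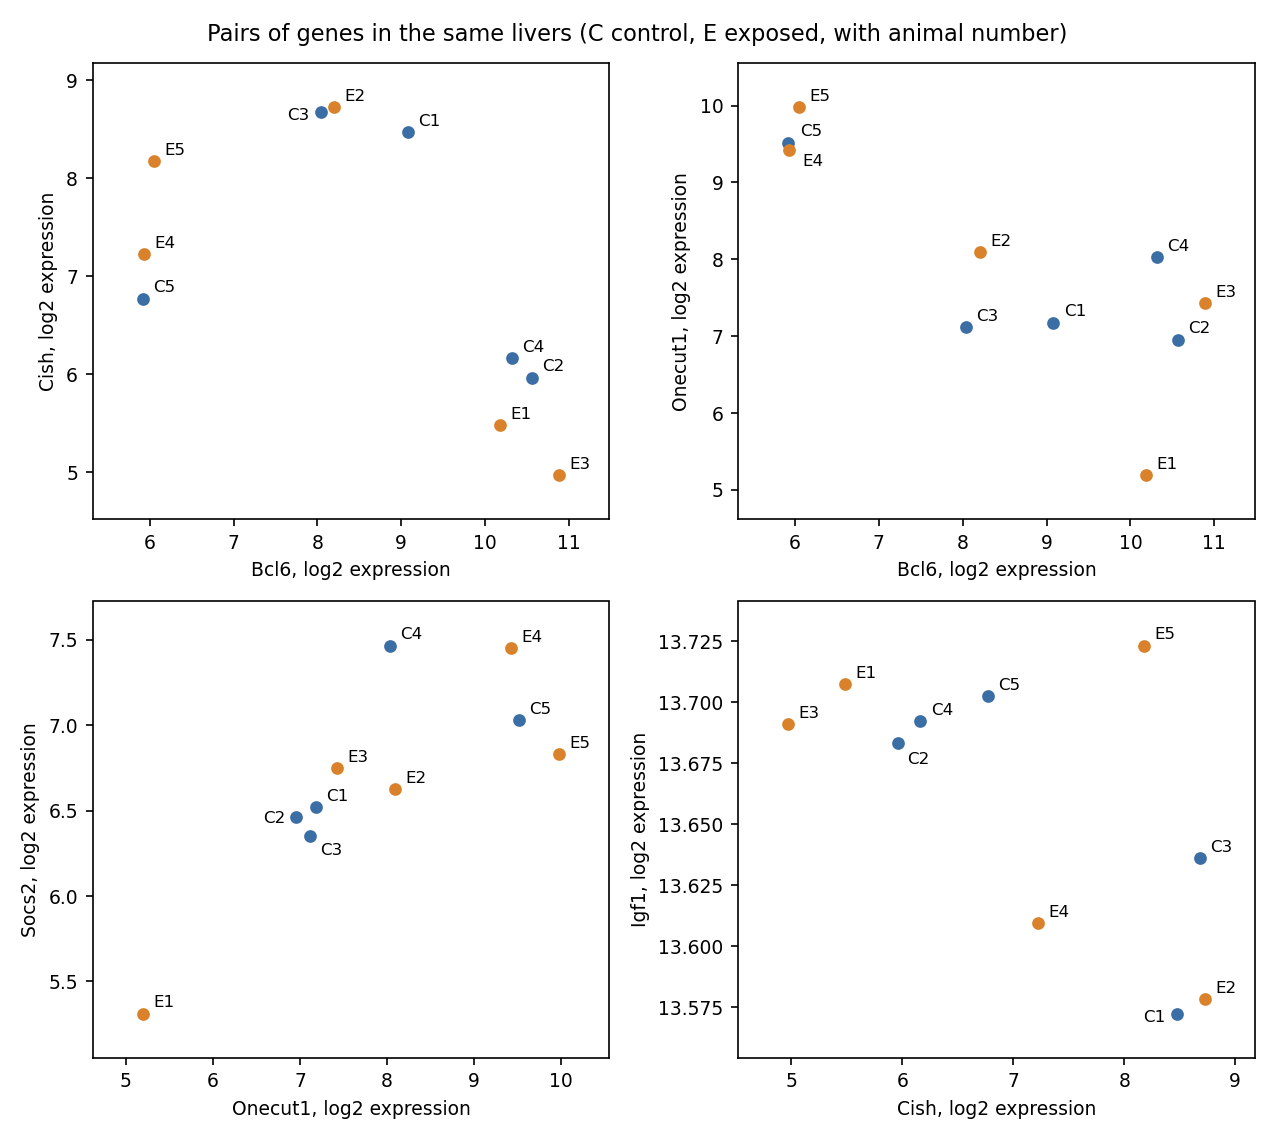
Each panel sets 2 genes' log2 expression against each other in the same 10 livers, labelled C for control (blue) or E for exposed (orange) with the animal number. In the panel of Bcl6 and Cish, 4 livers lie at high Bcl6 and low Cish, 3 at high Cish, and C5, E4 and E5 at Bcl6 of 5.92 to 6.05; the same 3 lie at the top for Onecut1. The Igf1 axis spans 0.15 log2 units in all.

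Igf1 and Igfals, the slow targets, had smaller ranges than the fast genes, and how small depended on the probe set of Igf1. Igf1, the hormone made by the liver, read 13.57 to 13.70 in controls and 13.58 to 13.72 in exposed animals on its brightest probe set, a range of 1.11-fold. That probe set lies near the upper end of the scale, at a mean of 13.66. The others read 12.82 to 13.31 and 11.11 to 11.94, ranges of 1.40-fold and 1.78-fold. Among all probe sets the SD of the 3 stood at percentiles 3.21, 64.3 and 92.0 from the brightest to the dimmest, so the dimmest varied more than most probe sets. Each pair of the 3 correlated at 0.780 to 0.940 over the animals. Igfals, the acid-labile subunit, read 10.997, 10.94, 10.67, 11.02 and 11.05 in controls and 10.94, 10.93, 11.04, 10.91 and 11.13 in exposed animals. Its SD stood at percentile 50.9, and without control animal 3 its range fell from 0.47 to 0.23.

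Cish and Igf1 leaned opposite ways, short of the threshold. Their r was -0.629 (exact permutation p 0.0883, adjusted 0.367) and rho -0.527 (p 0.163, adjusted 0.438), n = 10, and r was -0.525 without exposed animals 2 and 3 (exact permutation p 0.242). The livers with Cish at 8.47 to 8.72 had Igf1 at 13.57 to 13.64 on the brightest probe set, and those with Cish at 4.97 to 6.16 had it at 13.68 to 13.71. Exposed animal 5, with high Cish at 8.18 and the highest Igf1 at 13.72, went against this, and without it r was -0.894. The other Cish probe set gave r = -0.655 with the same Igf1 probe set. With the other Igf1 probe sets, which varied more, r lay between -0.464 and -0.404 over both Cish probe sets. On Igf1 probe set 2, control animal 3, with high Cish, read 13.14, and control animals 2 and 4, with low Cish, read 13.12 and 13.11. Control animal 1 and exposed animal 2, also high for Cish, were lower there, at 12.82 and 13.02. The remaining relations with Igf1 or Igfals that did not involve Bcl6 had r between -0.301 and 0.391, with exact permutation p values of 0.199 or more.

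Igfbp3, the main carrier of IGF1 in blood and in liver mostly a product of cells other than hepatocytes, read 9.60 to 10.17 in controls and 9.79 to 10.15 in exposed animals on its brighter probe set. Control animal 3 and exposed animal 5 were the highest, and the other probe set (r = 0.911 with the brighter) had control animal 3 at its top as well, at 9.88. Summed stellate cell markers were 12.38 in control animal 3 and 11.99 to 12.18 in the other 9 livers, with exposed animal 5 at 12.12. Endothelial markers were 11.68 in control animal 3 and 11.53 in exposed animal 5, and macrophage markers 12.80 and 12.92. Both lists were highest in exposed animal 2, at 11.75 and 13.03. In a bulk sample, a change in the share of a cell type and a change in RNA per cell cannot be told apart. The part of any of these cell types in the Igfbp3 values was not tested.

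Of the receptors, Ghr read 12.01 to 12.45 in controls and 12.18 to 12.44 in exposed animals on its brighter probe set, and 9.94 to 10.61 over all on the other. The pair did not follow each other (r = 0.0711, n = 10), so the arrays give no single Ghr order of the livers. Without control animal 2, the lowest, the brighter range fell from 0.44 to 0.27. Prlr, the receptor for prolactin that also signals through STAT5, read 5.94, 5.42, 5.89, 6.02 and 5.91 in controls and 5.68, 5.69, 6.54, 5.99 and 6.76 in exposed animals. Exposed animals 3 and 5 were the highest on all 3 Prlr probe sets, at 6.38 and 6.88 on probe set 2 and 4.33 and 4.50 on probe set 3, against at most 5.53 and 3.97 in the other livers. Probe sets 2 and 3 have means below that of the median probe set, 5.47.

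Stat5b, the transducer itself, read 7.16, 6.73, 7.07, 6.78 and 6.47 in controls and 6.91, 6.92, 6.99, 6.66 and 6.64 in exposed animals. Its 3 lowest livers, control animal 5 and exposed animals 4 and 5, were those with the lowest Bcl6 and the highest Onecut1. The step was small, from 6.66 to 6.73 between neighbours in the order.

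Exposure did not separate the members. With limma, 0 of the 18 passed an adjusted p of 0.05, where the background was 0.0% of 31042 probe sets. At an unadjusted p under 0.05 there were 0 of 18, against 5.46% of all, and 0 of 18 had groups that did not overlap, against 0.892%. Differences, exposed minus control, were above 0 for 11 and below 0 for 7, with a median of 0.014 against 0.0044 over all probe sets.

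For the fast genes these intervals were wide. Bcl6 had means of 8.78 ± 1.90 (SD, n = 5) among controls and 8.25 ± 2.29 (SD, n = 5) after exposure. The difference was -0.53, its SE 1.06 and its 95% interval -2.83 to 1.77, so a change of 2-fold either way would lie inside it. Cish differed by -0.29 ± 0.75 (-1.91 to 1.32), Onecut1 by 0.26 ± 0.77 (-1.41 to 1.94) and Socs2 by -0.17 ± 0.33 (-0.89 to 0.54). On their dimmer probe sets Cish differed by -0.0087 ± 0.62 (-1.35 to 1.33) and Onecut1 by 0.49 ± 0.55 (-0.71 to 1.69). The log2 ratio of 3' to 5' control probe sets, a sign of RNA quality, was also used as a covariate. The differences on the brightest probe sets were then -1.03 for Bcl6, -0.51 for Cish and 0.63 for Onecut1. Leaving out 1 animal moved the Bcl6 difference to -1.25 (without control animal 5) or 0.046 (without exposed animal 4).

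For the slow targets, Ghr and Stat5b the intervals were narrower. Igf1 differed by 0.0046 on its brightest probe set (95% interval -0.12 to 0.13) and by -0.028 on its dimmest (-0.31 to 0.26). The difference was 0.055 for Igfals (-0.12 to 0.23) and -0.016 for Stat5b (-0.29 to 0.25). Ghr differed by 0.0078 on its brighter probe set (-0.18 to 0.20) and by 0.13 on the other (-0.10 to 0.35). Igfbp3 differed by 0.041 (-0.20 to 0.28). The Prlr probe sets had the smallest p values among the members, with differences of 0.29, 0.62 and 0.35, the largest being 0.62 ± 0.35 (SE; -0.13 to 1.37), with exposed animals 3 and 5 the highest. Limma adjusted p values of the 18 lay between 0.880 and 0.998.

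**Figure D4:**
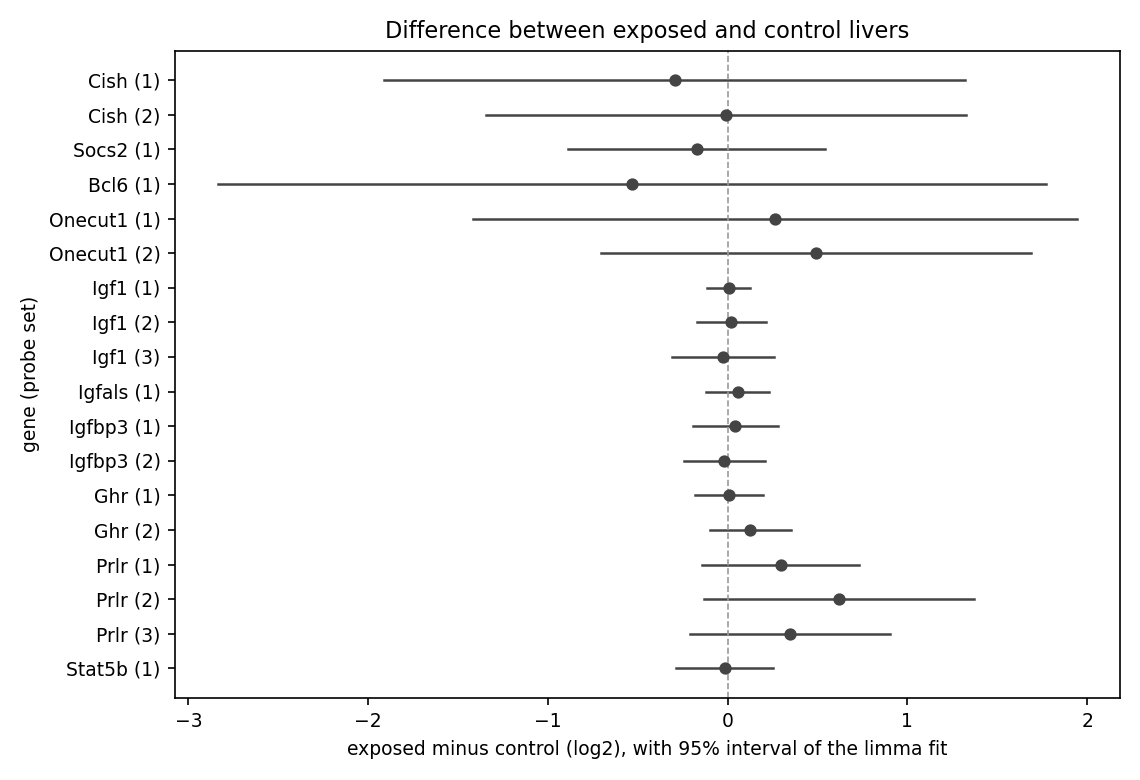
Points are differences, exposed minus control, on the log2 scale for the 18 probe sets, and lines are 95% intervals of the limma fit; the dashed line is no difference. All 18 intervals include 0, from the widest for Bcl6 (-2.83 to 1.77) to the narrowest for Igf1 (-0.12 to 0.13).

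A wider list of the pathway held 64 genes, of which 57 were measured by a probe set naming them alone. Limma called 0 of the 57 higher and 0 lower, with 2 at an unadjusted p under 0.05, where the background was 5.46% of all probe sets. Their median difference was 0.015, against 0.0044 over all. They fall into 22 genes of receptor signalling and liver regulators, 13 of the IGF system and 22 targets with sex-dependent growth hormone control. Stat3, a transducer of interleukin-6, had means of 9.30 ± 0.22 (SD, n = 5) among controls and 8.99 ± 0.10 (SD, n = 5) after exposure (limma adjusted p 0.879), and was the only one of the 57 whose groups did not overlap, which 0.892% of all probe sets did. The next by p were Lnx1 at 0.22 ± 0.10 (SE), Stc2, which inhibits the protease that frees IGF1 from binding proteins, at 0.15 ± 0.085, and Trim24 at 0.15 ± 0.09. The kinase Jak2 differed by 0.061 ± 0.069, Socs3 by -0.083 ± 0.079, the growth hormone target Serpina3n by -0.072 ± 0.055, Igfbp2 by 0.19 ± 0.13 and the male-predominant Cyp2c11 by 0.051 ± 0.049.

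Some of these pathway genes also varied widely between livers. An SD above the 90th percentile of all probe sets was found for 12 of the 57 (21.1%). That cut is lower than where the fast members stood, at percentiles 99.5 to 99.99 by their brightest probe sets. Stat5b, at 90.4, would pass it too. Only the most variable, Igfbp1, Foxa2, Aldh1a1 and Cyp2c12, stood at 99.5 to 99.9. Igfbp1, a binding protein that insulin lowers, spanned 9.38-fold: it read 11.18 in exposed animal 1, 7.95 in exposed animal 5, 8.35 in control animal 4 and 9.53 to 10.21 in the other 7. Exposed animal 1 was also the lowest for Onecut1, and exposed animal 5 the highest. Aldh1a1 spanned 5.36-fold, Foxa2 3.55-fold and Cyp2c12, a female-predominant target, 3.35-fold. Of the 22 sex-dependent targets, 4 had an SD above the 90th percentile. Others had small ranges, such as Cyp2c11 at 14.03 to 14.14 and Serpina3n at 13.22 to 13.42, both near the upper end of the scale.

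Genes most like the members in their order over the livers were taken from 9666 genes with a mean above the median probe set, by r with group means removed over 10 animals. Being the extremes of so many, these r values are no evidence of a link. For Cish the highest were Tmem216 (0.937), Nynrin (0.934), B4galt2 (0.933), Hhex (0.917) and Foxa2 (0.916). The first 3 spanned no more than 1.30-fold. Hhex and Foxa2, transcription factors of the liver, spanned 4.31-fold and 3.55-fold. Foxa2 read 9.87, 8.41, 10.14, 8.31 and 9.52 in control animals 1 to 5 and 8.63, 9.99, 8.55, 9.38 and 9.51 in exposed animals 1 to 5, so its 4 lowest livers were the 4 lowest for Cish. The lowest r values with Cish were those of Enox2 (-0.961), Lrig3 (-0.956) and Tp53bp2 (-0.945).

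For Bcl6, whose clusters leave r without a clear meaning, the same ranking only picked the names: Khdc4, Tsr1, Tsc22d1, Slc34a2 and Mro at the top and Vgll4, Ell and Rnf146 at the bottom. Tsc22d1, a leucine zipper regulator, read 11.36, 11.39 and 11.68 in the 3 livers with the lowest Bcl6 and 11.95 to 12.73 in the rest. Vgll4, a cofactor of TEAD factors, read 7.06 to 7.17 in those 3 and 6.15 to 6.87 in the rest. For Onecut1 the highest were Elf2 (0.960), Capn10 (0.953), Mtr (0.939), Tmx4 (0.937) and Atxn1l (0.929), and the lowest Cables1 (-0.962), Clns1a (-0.950) and Ddx10 (-0.945). For Igf1 they were Tomm70 (0.934), Aldh1l2 (0.915), Trak2 (0.904), Aox1 (0.901) and Chd3 (0.896), with Kctd13 (-0.956), Ldhb (-0.947) and Hcrtr1 (-0.932) at the other end.

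Other measures were set beside these orders. Dbp, an output gene of the circadian clock, read 9.34 in control animal 5 and 8.80 and 9.47 in exposed animals 4 and 5. These were its 3 highest livers, and it read 5.80 to 8.67 in the rest. The livers with the lowest Bcl6 and the highest Onecut1 were thus also the highest for Dbp, but by a small step. Control animal 4 and exposed animal 3 read 8.67 and 8.65 for Dbp, with Bcl6 high, at 10.32 and 10.89. The summed level of 9 immediate early genes, which respond to many stimuli within minutes, was 11.76, 12.004 and 11.83 in control animals 1 and 3 and exposed animal 2, the 3 highest for Cish. It was also 11.78 in exposed animal 1 and 11.88 in exposed animal 4, and 10.64 to 11.21 in the other 5 livers. The log2 ratio of 3' to 5' control probe sets was 0.73 in control animal 5 and 0.49 to 0.63 in the rest. Exposed animals 4 and 5 had 0.59 and 0.49. The part of these 3 measures in the members' spread was not tested.

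Cell type markers were summed per list. Hepatocyte markers (6 of 6 measured) lay at 16.77 to 16.83 in controls and 16.78 to 16.81 in exposed animals. Macrophage markers (9 of 10) lay at 11.75 to 12.90 and 12.08 to 13.03, with control animal 5 and exposed animal 3 lowest, which were at opposite ends for Bcl6. Endothelial markers (6 of 8) lay at 11.35 to 11.68 and 11.43 to 11.75, stellate markers (6 of 6) at 11.99 to 12.38 and 12.06 to 12.17, and lymphocyte markers (6 of 7) at 7.70 to 8.21 and 7.74 to 8.40. Bile duct markers (3 of 4) lay at 8.77 to 9.18 and 8.75 to 9.07, and red cell markers (2 of 3) at 13.44 to 13.96 and 13.42 to 14.05. RMA gives no value of 0, so no marker is listed at 0.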

How the data were processed

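The authors deposited log2 expression values per probe set. The submitters' processing notes name RMA and R 2.8.1, and the values themselves showed the log2 scale. RMA normalizes arrays to one another, so a shift shared by most genes is removed. Of 31099 probe sets 57 controls were left out. The array's annotation gave 1 gene for 20826 probe sets, several for 436 and none here for 9780, and 20758 matched RefSeq by gene ID. A gene with several probe sets is numbered from the highest mean, which stands for it in relations and lists.

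Exposed and control animals were compared with limma 3.58.1 in R 4.3.3 over all probe sets (two-sided, Benjamini-Hochberg, 0.05). Relations between genes used values with group means removed and all 14400 orders within groups. Members, lists and tests were chosen with earlier results of these data known. Named were all members. From the wider list the rule took the 4 genes with the smallest p, the 4 with the highest SD and 6 always given (Jak2, Socs3, Serpina3n, Igfbp1, Igfbp2, Cyp2c11). For likeness it took the 5 highest and 3 lowest r with Cish, Bcl6, Onecut1 and Igf1. Alternatives covered a filter on low values, normalization, centring, the replicate number, array weights, the variance prior, RNA quality, other probe sets and leaving out animals. The fit and the permutation test were checked on simulated data. The number of arrays limits the precision.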

Additional observations from a re-analysis of the deposited data

Results flagged for a closer look

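In 6 of 62 groups of 5 animals, over the members and the named pathway genes, a single animal stood apart by the gap to its nearest neighbour over the range of the group, where chance gives about 1 in 20. Control animal 5 read 8.44 on the second Onecut1 probe set, with the other controls at 6.14 to 6.80. Control animal 3 read 10.67 for Igfals (others 10.94 to 11.05). Control animal 2 read 12.01 for Ghr (12.33 to 12.45) and 5.42 for Prlr (5.89 to 6.02), both on the brightest probe set. Control animal 4 read 8.35 for Igfbp1 (9.85 to 9.99). Exposed animal 5 read 10.15 for Igfbp3 (9.79 to 9.87).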

How the results depend on the processing

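The count of 0 member probe sets past the threshold held under each alternative run, and over all probe sets 0 passed, or 1 when exposed animal 1 was dropped (leave-one-out 0 to 1). The 14 relations gave 0 past the threshold, and 2 with group means kept. Relations with RNA quality or the replicate number removed were computed as values with no test. Differences near 0 changed sign. With quantile normalization they were 0.022 for Cish probe set 2, -0.012 and 0.0020 for Igf1 probe sets 1 and 3 and 0.014 for Igfbp3 probe set 2; with median centring -0.018 and -0.0015 for Igf1 probe sets 1 and 2 and -0.015 for Ghr probe set 1; with array weights 0.21 for Cish probe set 2; with RNA quality as a covariate 0.088 for Igf1 probe set 3 and -0.021 for Igfbp3 probe set 1. Leaving out 1 animal changed the sign of 13 of 18 differences. Their ranges were -1.25 to 0.046 for Bcl6, -0.75 to 0.19 and -0.39 to 0.37 for Cish, -0.23 to 0.97 for Onecut1 probe set 1, -0.39 to 0.15 for Socs2, -0.017 to 0.026, -0.048 to 0.073 and -0.13 to 0.079 for Igf1, -0.013 to 0.083 for Igfals, -0.068 to 0.043 for Ghr probe set 1, -0.11 to 0.063 for Stat5b, and -0.022 to 0.12 and -0.077 to 0.057 for Igfbp3. The other 5, those of Prlr, Onecut1 probe set 2 and Ghr probe set 2, kept their sign, with ranges of 0.14 to 0.41, 0.32 to 0.83 and 0.16 to 0.49 for Prlr, 0.15 to 0.91 for Onecut1 and 0.047 to 0.20 for Ghr. Among relations, rho was -0.00606 for Cish with Socs2 and 0.0788 for Socs2 with Igf1, and r was -0.152 for Onecut1 with Igf1 after quantile normalization. Without the 2 farthest animals r was 0.0954 for Bcl6 with Igfals and 0.108 for Socs2 with Igf1. Leave-one-out ranges that crossed 0 were -0.349 to 0.255 for Cish with Socs2, -0.220 to 0.246 for Socs2 with Igf1, -0.218 to 0.396 for Onecut1 with Igf1, -0.233 to 0.222 for Bcl6 with Igfals, -0.526 to 0.0493 for Cish with Igfals and -0.0421 to 0.349 for Bcl6 with Igf1. The causes were not tested.

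Animals with the same replicate number did not deviate together, with correlations of -0.0696 to 0.0938 over probe sets, and 0 of 10 animals correlated best with its own number. With the replicate block limma called 0 probe sets, with 1666 at an unadjusted p under 0.05 against 1695 without it. In the relations, removing group means and the replicate block leaves few degrees of freedom among 10 values. The r values with the block removed are therefore poorly determined and were not tested. With the replicate block removed from the relations, r moved from 0.360 to 0.680 for Cish with Onecut1, from 0.0354 to -0.908 for Onecut1 with Igf1, from -0.0926 to -0.639 for Socs2 with Igf1 and from 0.391 to 0.0134 for Onecut1 with Igfals. For Bcl6, whose values over all 10 animals are clustered and stand here only for how they move, it went from 0.117 to 0.820 with Igf1, from -0.0140 to 0.772 with Igfals and from -0.596 to -0.780 with Cish. After Dbp, an alternative chosen after seeing the data, r was 0.781 for Cish with Onecut1, against 0.360, -0.711 for Onecut1 with Igf1, -0.791 for Socs2 with Igf1 and 0.574 for Bcl6 with Igf1.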
